A study of Saccharomyces cerevisiae with 5 samples.

Results

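The minus-side flanks of ARS305 and ARS315, the 2 early-efficient (EE) origins of the series, the sides of the nucleosome-free regions (NFRs) opposite to the +1 nucleosome, were described by single-molecule MATAC-Seq on purified chromatin rings. They were taken by position, as positions 1 to 480 of the ARS305 ring and 1 to 450 of the ARS315 ring, with the first base of the ring as position 1. The first 60 positions of each were set apart as the ring junction. The 2 flanks are 2 of the 8 ring parts of the series, each ring being divided at the end of its minus side, and hold 930 of 4597 positions, or 31 of 152 windows of 30 bp. Of these windows, 27 lie beyond the junction, 14 at ARS305 and 13 at ARS315.

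Rings of about a kilobase around ARS305, ARS315 and the late-inefficient origins ARS313 and ARS316 of Saccharomyces cerevisiae chromosome III were excised in vivo by a galactose-induced recombinase during arrest in G1 with α-factor, purified through a LexA-TAP protein and methylated with EcoGII, M.CviPI and M.SssI before Nanopore sequencing. All strains are MATa, ura3Δ0, leu2Δ0, his3Δ1, met15Δ0 and bar1::kanMX4 and carry pTEF2-LEXA-TAP and the recombinase under pGAL1-10, integrated on chromosome I. Wildtype strains carry no further deletion, isw2Δ strains carry isw2Δ::ura3 and ies6Δ strains carry ies6Δ::his. The 5 libraries are 1 of wildtype, 2 of isw2Δ and 2 of ies6Δ, and each library pools 1 strain per origin. The study calls the libraries of a genotype biological replicates, and both libraries of a mutant name the same strains. Because there is 1 wildtype library, wildtype values have no replicate check, and no exact permutation of 2 libraries against 1 can reach a p below 0.333.

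An origin of replication in yeast is an AT-rich NFR that is bound by the origin recognition complex and bordered by positioned nucleosomes. DNA wrapped in a nucleosome is poorly reached by methyltransferases, whereas linkers between nucleosomes and the NFR are reached, so an array of nucleosomes appears as protected stretches separated by peaks of methylation. Isw2 is the ATPase of the ISW2 remodeling complex, which slides nucleosomes towards the NFR, while Ies6 belongs to INO80, a remodeling complex that spaces nucleosomes and positions those at NFRs.

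The levels below are shares of methylated bases relative to the nucleosomal array spike-in of the same library, whose mean was set to 1, so that 1 stands for reconstituted nucleosomes together with their linkers. A linker is a peak of the 30-bp running mean of the genotype-mean profile that stands out by at least 0.3, and its borders lie midway up the peak. The stretches between linkers are called protected stretches. By this rule the flanks held 5 linkers and 6 protected stretches, 11 of the 75 segments of the 4 rings.

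The deposited tables hold no base letters. Oligonucleotides designed for the study were placed on the rings through their pattern of bases called on the forward or the reverse strand, each with a match at every base. They give the sequence of a small part of the flanks, written 5′ to 3′ along the ring, with bases inside a linker in capitals. The first was chosen because it runs through the distal linker of ARS305, where the only loss of methylation beyond the junction was called. The second lies in the part of the ARS315 flank with the lowest level in wildtype, where ies6Δ rose most. The third covers the end of the linker next to the NFR of ARS315 and continues beyond the flank.
ARS305 positions 199 to 241: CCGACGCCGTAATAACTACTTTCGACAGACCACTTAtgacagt
ARS315 positions 129 to 161: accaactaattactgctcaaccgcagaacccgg
ARS315 positions 444 to 466: TGTGTGTttgtatactctgtggg
G or C made up 20 of the 43 bases of the first, 17 of the 33 of the second and 10 of the 23 of the third. Chromosomal coordinates of the flanks were not used here.

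Read depth was even over the flanks. Libraries held 1477 to 1560 reads of ARS305 or ARS315, 15452 in all. The spike-ins were less methylated in wildtype, with 6.96% of the bases of the array and 25.0% of those of the naked plasmid, than in isw2Δ (array 12.2 and 11.8%, plasmid 33.6 and 34.8%) or ies6Δ (array 10.2 and 9.02%, plasmid 33.2 and 33.0%). Only 52 of the naked plasmid reads of wildtype were reverse reads.

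At ARS305, the array-normalized level of the flank alternated between 3 sharp linkers and protected stretches, unevenly spaced. It was nearly the same in all 5 libraries except for the linker farthest from the NFR. Linker 1 spanned positions 179 to 234 with its peak at 206, linker 2 spanned 356 to 389 with its peak at 371, and linker 3 spanned 448 to 475 with its peak at 468. In the genotype-mean profile the peaks reached levels of 2.04, 2.00 and 1.62. These levels do not allow for how readily the same bases are methylated in naked DNA, which is given below. The peaks lay 165 bp apart from linker 1 to linker 2, but only 97 bp from linker 2 to linker 3 and 96 bp from linker 3 to the peak of the NFR at 564. Stretch 2, between linkers 1 and 2, was 121 bp long, and stretch 3, between linkers 2 and 3, was 58 bp long. Stretch 1 is 118 bp long, a length set by where the junction was taken to end. Stretch 4, next to the NFR, has 5 bp within the flank and goes on to position 523, the last before the NFR.

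At ARS315, the level of the flank was lower and its linkers were shallow. The 2 flanks differ in sequence, and naked DNA of wildtype itself varied from 18.4 to 40.8% between windows of the ARS305 flank. ARS315 has no naked counterpart here, so whether its flank was more protected was not tested. Linker 1 spanned positions 211 to 235 with a peak of only 0.947 at 221, which stood out by 0.375, and linker 2 spanned 420 to 450 with a peak of 1.68 at 430. The peaks were 209 bp apart, and linker 2 lay 131 bp from the NFR peak at 561. The protected stretches were long, 150 bp for stretch 1 and 184 bp for stretch 2. The number of linkers at ARS315 depends on how far a peak must stand out: 5 were found at 0.2 and 1 at 0.5, whereas the 3 linkers of ARS305 were found at either value.

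**Figure D1:**
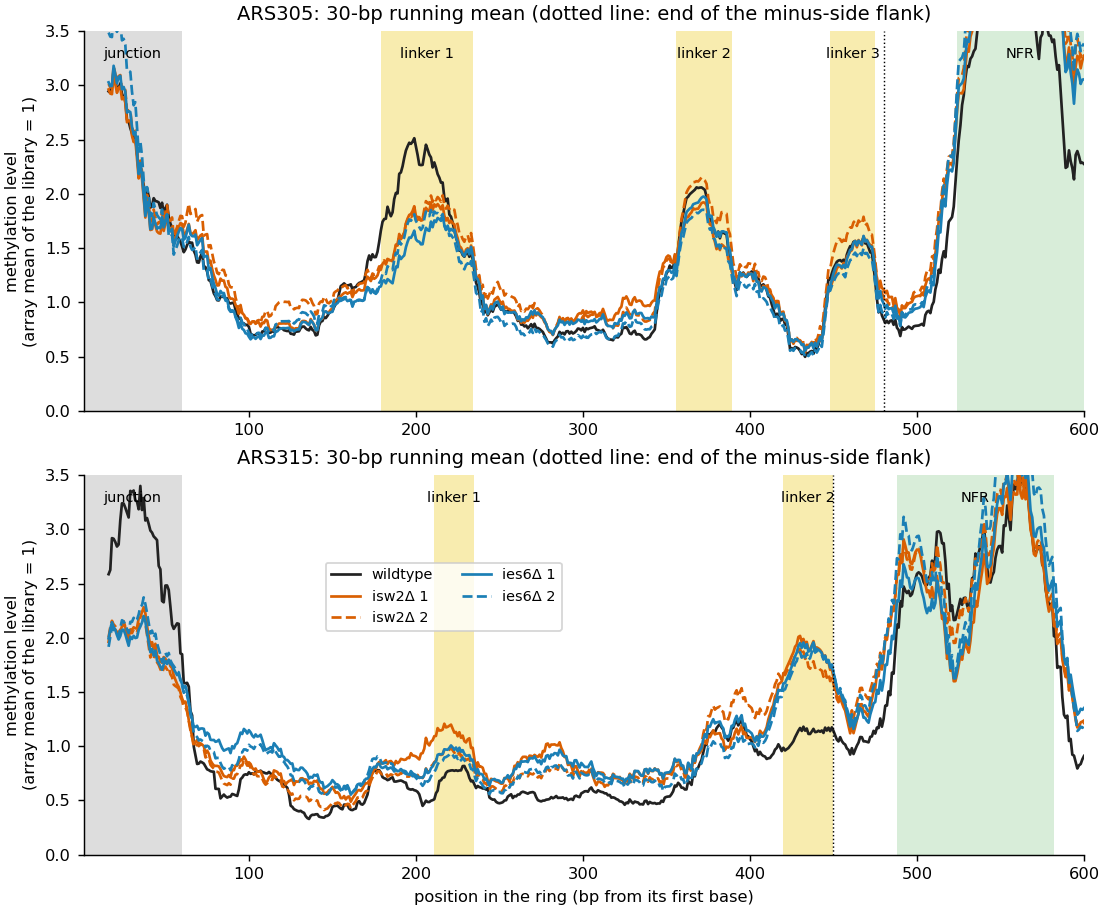
Running mean of the methylation level over 30 bp (y axis, array mean of the library as 1, axis ending at 3.5) by position in the ring in bp (x axis) for ARS305 (top) and ARS315 (bottom), 1 line per library. Linkers are yellow, the junction is gray, the NFR is green and the dotted line is the end of the flank; wildtype stands above the mutants at linker 1 of ARS305 and below them at linker 2 of ARS315.

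The ARS305 flank as a whole (positions 61 to 480) had a level of 1.16 in wildtype against 1.17 and 1.24 in isw2Δ and 1.12 and 1.06 in ies6Δ. For the ARS315 flank (61 to 450) the level was 0.694 in wildtype against 0.938 and 0.884 in isw2Δ and 0.967 and 0.886 in ies6Δ. Therefore, the ARS305 flank was more methylated than the ARS315 flank in every library, and at ARS315 all 4 mutant libraries lay above wildtype. In limma, the ARS305 flank changed by a log2 of 0.05 in isw2Δ (95% interval -0.23 to 0.33, adjusted p = 0.728) and -0.09 in ies6Δ (-0.37 to 0.19, adjusted p = 0.657). The ARS315 flank rose by 0.39 in isw2Δ (adjusted p = 0.0184) and 0.42 in ies6Δ (adjusted p = 0.0150). The mutants were not shown to differ from each other there, with a difference of -0.02 (adjusted p = 0.944).

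The rise of the ARS315 flank depends on where the junction is taken to end. Its first windows moved the other way: window 1 (positions 1 to 30) had 2.59 in wildtype and 1.92 to 2.00 in the mutants, and window 2 (31 to 60) had 2.66 in wildtype and 1.75 to 1.90 in the mutants, lower in both mutants in limma (window 2 adjusted p = 0.000705 in isw2Δ and 0.00186 in ies6Δ). Not all bases of the junction shared this direction: at 25 of its 60 positions all 4 mutant libraries lay below wildtype, and at 35 they all lay above it. In window 2 the bases called on the reverse strand had a mean of 4.87 in wildtype and 2.27 to 2.61 in the mutants, and those called on the forward strand 0.974 and 1.13 to 1.49. In the Wilcoxon signed-rank test of the study's methods, over the 30 positions of a window, neither window passed the threshold of 0.025 in either mutant. With only positions 1 to 30 left out, the flank change was 0.22 in isw2Δ (adjusted p = 0.173) and 0.25 in ies6Δ (adjusted p = 0.157). The call was also lost with the reads of either strand alone and with a mean-variance trend in limma. The cassette sequence that marks the recombination junction was found at positions 27 to 61 of ARS305 but at 1165 to 1214 of ARS315, so that the first 60 positions of ARS315 do not contain that stretch. At ARS305 neither junction window was called.

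The change of the 2 flanks was compared directly through the ratio of the ARS305 to the ARS315 flank in each library, in which the spike-in cancels. The ratio was 1.67 in wildtype against 1.24 and 1.40 in isw2Δ and 1.15 and 1.20 in ies6Δ. All 4 mutant libraries were below wildtype. It fell by 0.51 on the log2 scale in ies6Δ (adjusted p = 0.0244 from limma over the 6 pairs of rings) and by 0.34 in isw2Δ, which missed the threshold (adjusted p = 0.0838). The ies6Δ call was lost with reverse reads alone (-0.32, adjusted p = 0.105), with a replicate block (-0.45, adjusted p = 0.0780) and without either ies6Δ library (adjusted p = 0.139 without replicate 1 and 0.0894 without replicate 2). Against the flank of ARS313 the ARS305 flank was not called in either mutant, with changes of -0.20 in isw2Δ (adjusted p = 0.175) and -0.24 in ies6Δ (adjusted p = 0.109). Against the flank of ARS316, whose levels were 0.975 in wildtype and 1.09 to 1.25 in the mutants, the ARS305 flank fell by 0.28 in isw2Δ (adjusted p = 0.0322) and 0.30 in ies6Δ (adjusted p = 0.0244). The ies6Δ libraries held only 176 and 575 reads of ARS316.

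Relative to the rest of its own ring, the ARS305 flank lost and the ARS315 flank gained methylation. The ratio of flank to rest at ARS305 was 0.919 in wildtype against 0.723 and 0.747 in isw2Δ and 0.705 and 0.667 in ies6Δ. At ARS315 it was 0.383 in wildtype against 0.506 and 0.450 in isw2Δ and 0.554 and 0.491 in ies6Δ. Wildtype and the mutant libraries did not overlap at either origin, nor at the late origins. There the ratio was also lower in the mutants, 1.16 in wildtype against 0.893 to 1.09 at ARS313 and 0.789 against 0.663 to 0.771 at ARS316, without a call. In ies6Δ the ratio fell by 0.42 at ARS305 and rose by 0.45 at ARS315 (both adjusted p = 0.0260 from limma), while the changes of -0.32 and 0.32 in isw2Δ missed the threshold (both adjusted p = 0.0894). Both ies6Δ calls were lost when either ies6Δ library was left out, with log2 changes of -0.46 to -0.38 at ARS305 and 0.36 to 0.53 at ARS315.

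Among single windows, 8 of the 27 flank windows passed the threshold in isw2Δ, 7 higher at ARS315 and 1 lower at ARS305, against 50.7% of all 152 windows (46.1% higher, 4.61% lower). In ies6Δ the split was the same, 8 of 27 with 7 higher at ARS315 and 1 lower at ARS305, against 34.9% of all windows (30.9% higher, 3.95% lower). The ARS305 window was the same in both mutants, and 4 of the ARS315 windows were called in both. None of the 14 ARS305 windows was called higher by limma, at an unadjusted p under 0.05 either. The methods' Wilcoxon test, which takes the positions of a window as its replicates and the genotype means as its values, put 5 ARS305 windows of isw2Δ higher and 1 lower at an unadjusted p under 0.025, and 0 higher and 2 lower in ies6Δ. At ARS315 it put 5 windows higher in isw2Δ and 8 in ies6Δ. Many windows in the rest of the 4 rings passed this test as well, so these counts do not set the flanks apart. The median log2 change of the ARS305 windows was 0.14 in isw2Δ and -0.02 in ies6Δ, that of the ARS315 windows 0.39 and 0.42, and that of all windows of the 4 rings 0.31 and 0.21. ARS305 thus lay below the background of the series and ARS315 somewhat above it. Both mutants share the wildtype library, so their shared calls are not independent of each other.

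**Figure D2:**
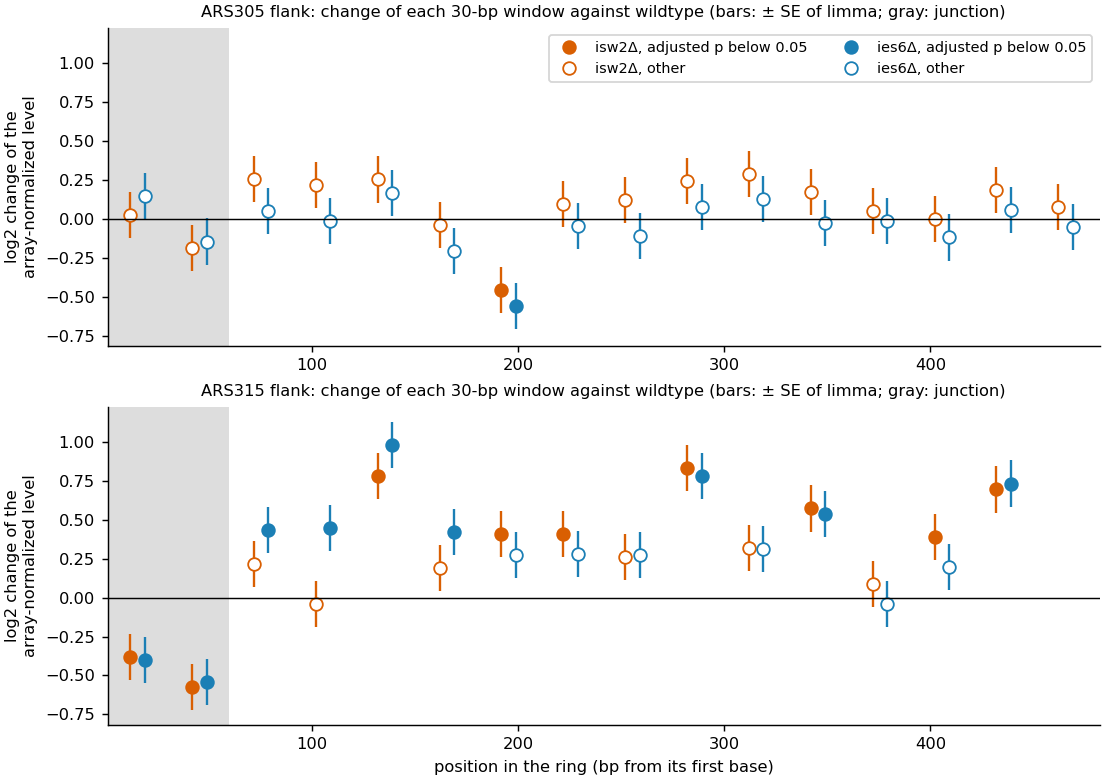
Log2 change of the array-normalized level (y axis) of each 30-bp window against wildtype by position in the ring in bp (x axis) for isw2Δ and ies6Δ at ARS305 (top) and ARS315 (bottom). Bars are ± the standard error of limma, filled points passed an adjusted p of 0.05, and gray marks the junction; at ARS305 the single filled pair is window 7, below 0, while at ARS315 the filled points beyond the junction lie above 0.

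Of the 11 segments, 3 passed in isw2Δ, all at ARS315 and higher (background 52% of 75 segments, 49.3% higher and 2.67% lower), and 3 in ies6Δ, 2 at ARS315 higher and 1 at ARS305 lower (background 34.7%, 32% higher and 2.67% lower). The linkers of ARS305 are described from the outside towards the NFR. Linker 1, the distal one, had a level of 2.09 in wildtype against 1.74 and 1.80 in isw2Δ and 1.59 and 1.65 in ies6Δ. All 4 mutant libraries were lower. The change was -0.24 in isw2Δ (adjusted p = 0.138) and -0.37 in ies6Δ (adjusted p = 0.0305 from limma), a call that was lost without ies6Δ replicate 1 (adjusted p = 0.0875) and without either isw2Δ library (adjusted p = 0.0565). Relative to the stretches on its sides, which needs no spike-in, linker 1 stood at 2.46 in wildtype against 1.81 and 1.79 in isw2Δ and 1.77 and 1.96 in ies6Δ.

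Linker 2 had a level of 1.93 in wildtype against 1.84 and 2.05 in isw2Δ and 1.88 and 1.76 in ies6Δ. Linker 3 had 1.60 in wildtype against 1.58 and 1.80 in isw2Δ and 1.58 and 1.48 in ies6Δ. At both, wildtype lay among the mutant libraries of isw2Δ and above both of ies6Δ. The changes were 0.01 and 0.07 in isw2Δ (95% intervals -0.27 to 0.29 and -0.21 to 0.35) and -0.09 and -0.07 in ies6Δ (-0.37 to 0.19 and -0.35 to 0.21), and none was called by limma. Of the protected stretches of ARS305, stretch 2 was the lowest in wildtype at 0.754, with 0.903 and 0.897 in isw2Δ and 0.849 and 0.734 in ies6Δ. Stretch 1 had 0.954 in wildtype and 0.949 to 1.12 in the mutants, and stretch 3 had 0.878 and 0.812 to 0.944. No stretch of ARS305 was called.

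**Figure D3:**
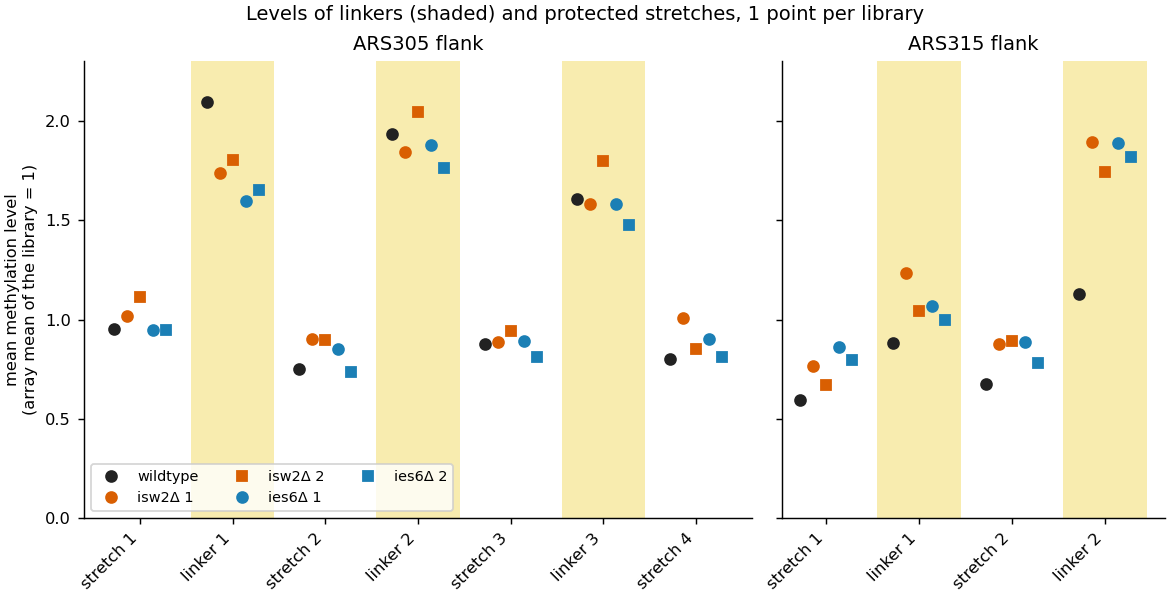
Mean methylation level (y axis, array mean of the library as 1) of each linker (shaded) and protected stretch (x axis, from the junction towards the NFR) of the ARS305 flank (left) and the ARS315 flank (right), 1 point per library. At ARS305 wildtype is above all 4 mutant libraries only at linker 1 (2.09 against 1.59 to 1.80), and at ARS315 it is below them in all 4 segments, by most at linker 2 (1.13 against 1.74 to 1.90).

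The only window beyond the junction with a called loss was window 7 of ARS305 (positions 181 to 210), in the outer part of linker 1. Its level was 2.47 in wildtype against 1.81 and 1.79 in isw2Δ and 1.60 and 1.77 in ies6Δ. No mutant library came near wildtype. The change was -0.46 in isw2Δ (adjusted p = 0.00752) and -0.56 in ies6Δ (adjusted p = 0.00132 from limma). The neighbouring window 8 (211 to 240), which holds the inner part of the linker and most of the first sequence above, had 1.48 in wildtype and 1.37 to 1.64 in the mutants and was not called. The running mean of linker 1 accordingly peaked at 199 in wildtype, at 209 and 216 in isw2Δ, and at 216 and 209 in ies6Δ. Over a mean of 50 bp the peaks lay at 203 to 209 in all 5 libraries. Linker 3 peaked at 468 in all 5 libraries, and linker 2 at 368 in wildtype and 371 or 372 in the mutants.

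The ARS305 flank could be set against naked DNA, since its bases are also part of the naked plasmid of each library. Its pattern of called strands was found in the plasmid in 2 pieces that together matched 419 of 420 positions. The pieces, positions 61 to 221 and 222 to 480, are not adjacent in the plasmid. Their border lies within linker 1 and window 8. ARS315 was not placed in the plasmid. Over the whole flank, chromatin of wildtype reached 29.9% of the methylation of the same naked bases, isw2Δ 38.6% ± 0.475 and ies6Δ 28.5% ± 3.66 (SD, n = 2). On this scale both isw2Δ libraries were above wildtype in 14 of 14 windows, by a median log2 of 0.35, and both ies6Δ libraries were above it in 4 of 14, with a median of -0.09. With forward reads alone the isw2Δ libraries were both above wildtype in 13 windows, and with reverse reads alone in 12 and both below it in 2, windows 8 and 10. These are descriptions without a test. The scale does not use the array spike-in, which itself rose by a larger factor than the naked plasmid in isw2Δ. Array methylation was 6.96% in wildtype and 12.2 and 11.8% in isw2Δ, beside 25.0%, 33.6 and 34.8% for the plasmid. Relative to the array, the ARS305 flank changed by a log2 of only 0.05 in isw2Δ, which was not called. Over both strands, linker 1 was the most open segment in every group, at 48.5% of naked DNA in wildtype, 67.0% in isw2Δ and 49.9% in ies6Δ. Stretches 1 and 2 were the most closed of those longer than 5 bp, at 21.4 to 30.6%. With forward reads alone, linker 3 was above linker 1 in every group. It stood at 60.3% against 46.2% in wildtype, 67.7% against 60.3% in isw2Δ and 59.3% against 43.2% in ies6Δ.

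At window 7 the direction on this scale depended on the mutant and the strand. In the naked plasmid itself, the bases of window 7 were methylated at 33.1% in wildtype but at 23.1 and 24.7% in isw2Δ and 24.2 and 21.4% in ies6Δ, although the plasmid as a whole was more methylated in the mutants. Relative to the plasmid mean, this was a log2 difference of -0.92 in isw2Δ and -0.95 in ies6Δ, lowest among the 14 windows in both, whose highest values were 0.45 and 0.48. Most of it lies on the reverse strand, where the wildtype plasmid has 52 reads: reverse reads gave 41.3% in wildtype and 17.6 to 21.6% in the mutants, and forward reads 25.8% and 24.6 to 27.4%. In chromatin, window 7 stood at 52.0% of naked DNA in wildtype, 90.8% ± 7.27 in isw2Δ and 71.1% ± 4.93 in ies6Δ (SD, n = 2), higher in all 4 mutant libraries. Forward reads alone put it at 61.8% in wildtype, 76.9% ± 5.44 in isw2Δ and 56.2% ± 1.59 in ies6Δ, so that isw2Δ remained above wildtype whereas both ies6Δ libraries were below it. Linker 1 as a whole had naked differences of -0.37 in isw2Δ and -0.35 in ies6Δ beside chromatin changes of -0.24 and -0.37. On forward reads it stood at 46.2% of naked DNA in wildtype, 60.3% ± 3.41 in isw2Δ and 43.2% ± 3.37 in ies6Δ.

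Across the 14 ARS305 windows, the change in chromatin and the difference in naked DNA had a Pearson correlation of 0.84 in isw2Δ and 0.86 in ies6Δ, and of 0.48 and 0.56 without window 7. On forward reads alone the correlation was 0.57 and 0.69, and 0.35 and 0.51 without window 7. Both scales share the libraries and the base composition of each window. The plasmid was also cut into 159 windows on its own grid, which is not that of the ring. Window 7 of the ring, at -0.92 and -0.95, is therefore not one of them and lies outside their ranges. Over these 159 windows, the naked log2 difference between mutants and wildtype had an SD of 0.27 for isw2Δ (-0.66 to 0.82) and 0.25 for ies6Δ (-0.52 to 0.79), whereas isw2Δ and ies6Δ differed by an SD of only 0.05. On forward reads alone these SDs were 0.38, 0.34 and 0.075. The wildtype library therefore stands apart from the mutant libraries in naked DNA as well, and the contrast of the mutants with each other does not rest on it. How much of the ARS315 changes below comes with such differences was not tested, because its bases have no naked counterpart here.

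**Figure D4:**
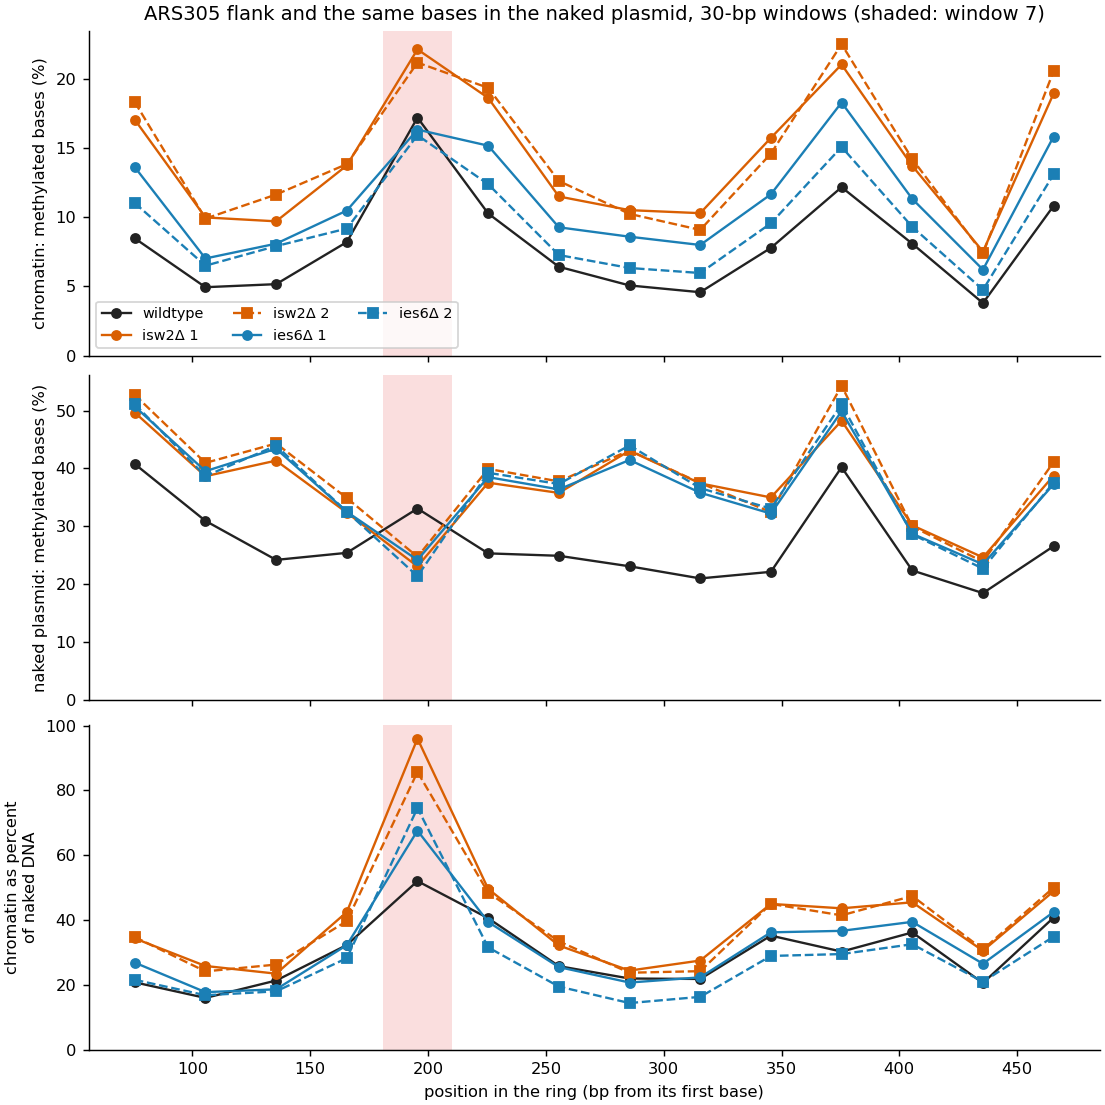
Methylated bases of the ARS305 flank in chromatin in percent (top), of the same bases in the naked plasmid in percent (middle), and chromatin as a percent of naked DNA (bottom) by position in the ring in bp, with 1 point per 30-bp window and library. In window 7 (shaded), naked DNA of wildtype stands at 33.1%, above the mutants at 21.4 to 24.7%, and chromatin as a percent of naked DNA is higher in the mutants over both strands.

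At ARS315, linker 2, the linker next to the NFR, had the largest change of the flank segments. Its borders were set on the genotype-mean profile, to which both mutants contribute. Wildtype alone had no distinct peak there, so the change is not independent of how the segment was chosen. The level of linker 2 was 1.13 in wildtype against 1.90 and 1.74 in isw2Δ and 1.89 and 1.82 in ies6Δ. All mutant libraries lay close together and far above wildtype. It rose by 0.69 in isw2Δ (adjusted p = 4.4e-05) and by 0.72 in ies6Δ (adjusted p = 1.5e-05 from limma), and each call held without any 1 mutant library. With forward reads alone the isw2Δ call was lost (0.66, adjusted p = 0.0558), and with the naked plasmid mean as the divisor the ies6Δ call was lost (0.78, adjusted p = 0.0522). Against its neighbouring stretches the linker stood at 1.52 in wildtype against 1.95 and 1.74 in isw2Δ and 1.95 and 2.01 in ies6Δ. In wildtype this part of the flank had no distinct peak at 430: within the 40 bp searched the running mean was highest at 395, at 1.25, whereas it peaked at 430 in both isw2Δ libraries (2.02 and 1.90) and at 438 in both ies6Δ libraries (1.96 and 1.92).

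The other segments of ARS315 rose less. Stretch 2, between the linkers, had 0.675 in wildtype against 0.876 and 0.892 in isw2Δ and 0.885 and 0.784 in ies6Δ, a rise of 0.39 in isw2Δ (adjusted p = 0.0189) and a change of 0.30 in ies6Δ (adjusted p = 0.0771 from limma). Linker 1 had 0.880 in wildtype against 1.23 and 1.04 in isw2Δ and 1.07 and 0.999 in ies6Δ, a rise of 0.37 in isw2Δ (adjusted p = 0.0237) and a change of 0.23 in ies6Δ (adjusted p = 0.191). Stretch 1, next to the junction, had 0.595 in wildtype against 0.767 and 0.670 in isw2Δ and 0.860 and 0.799 in ies6Δ, a change of 0.27 in isw2Δ (adjusted p = 0.104) and a rise of 0.48 in ies6Δ (adjusted p = 0.00494). In the mean of each of these segments all 4 mutant libraries were above wildtype. Not every base shared this direction: position 64, in stretch 1, had 5.03 in wildtype and 1.26 to 2.89 in the mutants. The isw2Δ calls of linker 1 and stretch 2 were lost without isw2Δ replicate 1 (adjusted p = 0.248 and 0.0761), and that of stretch 2 also without isw2Δ replicate 2 (adjusted p = 0.0983).

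The windows of ARS315 with the largest changes were the same 3 in both mutants. Window 5 (positions 121 to 150), in the middle of stretch 1 and largely covered by the second sequence above, had the lowest wildtype level of either flank. This level was 0.330 against 0.651 and 0.493 in isw2Δ and 0.703 and 0.602 in ies6Δ. Window 5 rose by 0.78 in isw2Δ (adjusted p = 5.8e-06) and 0.98 in ies6Δ (adjusted p = 2.2e-08 from limma). Window 10 (271 to 300), within stretch 2, had 0.525 in wildtype against 1.04 and 0.841 in isw2Δ and 0.969 and 0.841 in ies6Δ, a rise of 0.83 (adjusted p = 2.0e-06) and 0.78 (adjusted p = 7.0e-06). Window 15 (421 to 450) coincides with linker 2 and rose by 0.69 and 0.73. With forward reads alone the isw2Δ change of window 5 was 0.45 (adjusted p = 0.134). Window 14 (391 to 420), which borders linker 2, had 0.949 in wildtype against 1.14 and 1.35 in isw2Δ and 1.11 and 1.06 in ies6Δ, a rise of 0.39 in isw2Δ (adjusted p = 0.0204) and a change of 0.20 in ies6Δ (adjusted p = 0.303). Window 13 (361 to 390), farther out, had 1.11 in wildtype and 0.980 to 1.28 in the mutants and was not called in either. These 2 windows were chosen after their values were seen.

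Isw2Δ and ies6Δ differed from each other in 1 of the 27 windows, against 5.26% of all windows, and in none of the 11 segments (0 at an unadjusted p under 0.05, background 4%). The window is window 4 of ARS315 (positions 91 to 120), in the outer part of stretch 1. It had 0.767 in wildtype against 0.765 and 0.724 in isw2Δ and 1.09 and 1.002 in ies6Δ. In this mean only ies6Δ was above wildtype. Single bases of the window moved in opposite directions in isw2Δ. Position 92 had 0.474 in wildtype against 1.47 and 1.33 in isw2Δ, and position 109 had 3.63 against 1.11 and 1.46. The difference was -0.49 (adjusted p = 0.00175 from limma) and was -0.45 (adjusted p = 0.115) without isw2Δ replicate 2. With the naked plasmid mean as the divisor it was -0.21 (adjusted p = 0.244).

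Single molecules show how often a linker carried any methylated base. These shares are not divided by a spike-in, so that the higher overall methylation of the mutant libraries, with 9.02 to 12.2% of array bases methylated against 6.96% in wildtype, is part of them, and they also depend on the length of a segment. Wilson intervals (95%) cover the counting of molecules only. At linker 1 of ARS305, 18.9% of wildtype molecules had no methylated base (17.0 to 21.0%), against 7.88 and 7.69% in isw2Δ and 14.6 and 17.8% in ies6Δ. At linker 2 the shares were 40.4% in wildtype against 21.9 and 17.9% in isw2Δ and 30.4 and 34.1% in ies6Δ. At linker 3, the shortest, they were 61.5% in wildtype against 37.6 and 35.2% in isw2Δ and 47.8 and 54.7% in ies6Δ. Within every library the share without methylation thus rose from the distal linker to the one next to the NFR.

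At ARS315 most wildtype molecules had unmethylated linkers. Linker 1 was without a methylated base in 66.2% of wildtype molecules, 43.1 and 49.1% in isw2Δ, and 54.6 and 60.7% in ies6Δ. Linker 2 was so in 74.4% of wildtype molecules (72.1 to 76.6%), 43.7 and 49.3% in isw2Δ, and 53.5 and 59.4% in ies6Δ. Linker 2 was more often unmethylated than linker 1 in the wildtype library, whereas the shares of both linkers were close to each other in each mutant library. Both linkers were read on the same molecules and differ in length, and this contrast was not tested. The whole ARS315 flank carried no methylated base in 10.4% of wildtype molecules, 1.28 and 1.60% in isw2Δ, and 3.21 and 4.04% in ies6Δ, against 2.07% in wildtype and at most 0.962% in the mutants at ARS305.

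**Figure D5:**
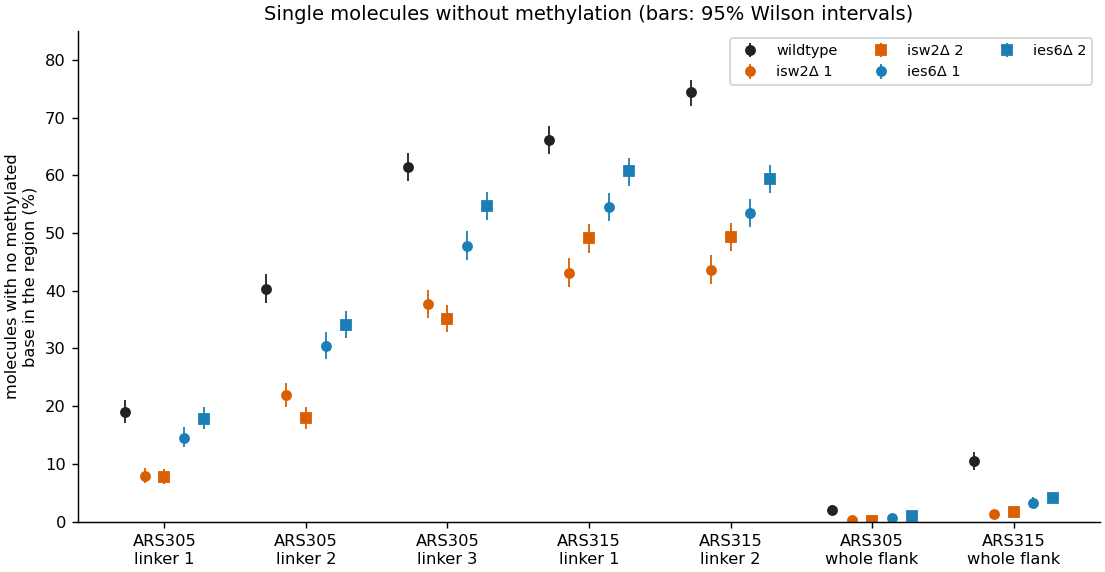
Share of molecules in percent (y axis) without a methylated base in each linker and in the whole flank (x axis), 1 point per library with its 95% Wilson interval, not normalized to a spike-in. Wildtype has the highest share in every region, and the gap to the mutants is widest at linker 2 of ARS315 (74.4% against 43.7 to 59.4%).

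The linkers of a flank tended to be open on the same molecules. All 3 linkers of ARS305 carried methylation on 24.3% of wildtype molecules, where independent linkers with the same shares would give 18.3%. In isw2Δ the shares were 50.4 and 53.2% against 44.6 and 49.2%, and in ies6Δ 36.0 and 30.3% against 30.7 and 24.2%. At ARS315 both linkers were methylated on 12.2% of wildtype molecules against 8.68% for independent linkers, on 36.6 and 29.4% in isw2Δ against 32.0 and 25.7%, and on 26.2 and 20.3% in ies6Δ against 21.2 and 16%. The observed share was above the product in every library. Molecules also differ in how strongly they were methylated as a whole: the methylation of the flank had a Spearman correlation over molecules of 0.11 to 0.47 with that of the NFR at ARS305 (median 0.32 over 10 combinations of library and strand) and of 0.19 to 0.38 at ARS315 (median 0.29), and with the ring beyond the NFR the medians were 0.49 and 0.37.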

How the data were processed

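MATAC-Seq data of chromatin rings of 4 origins and of 2 spike-ins were analysed in 5 libraries, grouped as 1 of wildtype (labelled replicate 2), 2 of isw2Δ and 2 of ies6Δ. Bases were called by the authors with Megalodon, with thresholds on the m6A and CpG scores, and the deposited values are fractions of 0 or 1 per base and read without normalization. The submitters' processing notes name the genome build R64. All 60 tables were read, with 43459 reads in total, and 1 incomplete line was left out. Each position of a ring was called on 1 strand, and the columns of forward and reverse tables aligned without a shift.

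Means over forward and reverse reads were added per position, divided by the array mean of the library and averaged over 152 complete windows of 30 bp and 75 segments of the 4 rings. Log2 levels were compared with limma in a fit of the 5 libraries, which leaves 2 residual degrees of freedom. P-values were adjusted by Benjamini-Hochberg over all windows, or over all segments and flanks, and values under 0.05 were called. The spread stems from the mutant pairs alone and was pooled, giving a standard error of 0.148 for a window and 0.142 for a segment against wildtype, and of 0.121 and 0.116 between mutants. Every window, and every segment, thus has the same standard error, and its p-value rests on far more than 2 degrees of freedom. Neighbouring windows of a library are not independent replicates, so that p-values from this pooling can be too small.

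All flank segments are named. For each origin and mutant, so are the 3 windows beyond the junction with the largest absolute change among those past the threshold and changed in 1 direction in both libraries, and for isw2Δ against ies6Δ the windows past it. The regions and lists were chosen with earlier results of these data known. Same-numbered isw2Δ and ies6Δ libraries share only a number. Alternatives covered the divisor, strand, number of reads, positions methylated in at least 5% of molecules, window width and grid, prominence, junction length, the variance trend, a replicate block, leaving out single mutant libraries and the methods' paired Wilcoxon test over positions. The fit and the linker search were tested on simulated data. Python 3.11.15 with NumPy 2.4.6, SciPy 1.17.1, Matplotlib 3.10.9 and pandas 2.3.3 was run beside limma 3.58.1 in R 4.3.3.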

Additional observations from a re-analysis of the deposited data

Results flagged for a closer look

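Window 4 of ARS315 differed between the mutants by a log2 of -0.49 (isw2Δ minus ies6Δ, adjusted p = 0.00175 from limma). In the mean of its bases both isw2Δ libraries were at or below wildtype and both ies6Δ libraries above it. The change of the ARS305 flank in ies6Δ was below that of the ARS315 flank, with a log2 difference of -0.51 (adjusted p = 0.0244 from limma over 6 pairs of rings). This call was lost with reverse reads alone, with a replicate block and without either ies6Δ library.

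At ARS305, both isw2Δ libraries were above and both ies6Δ libraries below wildtype in the flank as a whole, in stretch 1 and in window 9 (positions 241 to 270). The isw2Δ minus ies6Δ difference was 0.14, 0.17 and 0.23, and limma called none of them (adjusted p = 0.597 for the flank and 0.397 for window 9).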

How the results depend on the processing

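The counts of this section are of the flanks alone, without the share of all windows or segments under the same setting. They do not set the flanks apart from the rest of the rings. With the naked plasmid mean as the divisor, 15 flank windows and 6 segments passed in isw2Δ and 0 and 0 in ies6Δ (8 and 2 at an unadjusted p under 0.05 in limma), where 8 and 3 had been called in each mutant, and 0 windows passed between the mutants (14 unadjusted). In ies6Δ the ARS315 flank was then at 0.48 (adjusted p = 0.133), the difference between the mutants there at 0.25, and linker 1 of ARS305 in isw2Δ at 0.092. Without normalization, the higher overall methylation of the mutant libraries is part of every change. On that scale 26 windows and 11 segments passed in isw2Δ, 16 and 5 in ies6Δ, and 2 segments between the mutants. The ARS305 flank was then at 0.84 in isw2Δ (past the threshold) and 0.37 in ies6Δ, its linker 1 at 0.55 and 0.10, linkers 2 and 3 in ies6Δ at 0.38 and 0.39, window 7 in isw2Δ at 0.33, and the difference of the mutants at the ARS315 flank at 0.30. With the ring mean as the divisor, 4 windows passed in isw2Δ, the flanks were at -0.21 (ARS305) and 0.26 (ARS315, no longer called), and linkers 2 and 3 of ARS305 at -0.25 and -0.19.

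With forward reads alone, no segment was called in isw2Δ (0 of 11 in limma, 5 unadjusted), 0 windows passed between the mutants (1 unadjusted), the ARS305 flank was at -0.062 and its linkers 2 and 3 at -0.12 and -0.16, the ARS315 flank at 0.49 in isw2Δ and 0.54 in ies6Δ (neither called), and the ARS305 to ARS315 ratio in isw2Δ at -0.56 (called). With reverse reads alone, ies6Δ had 4 windows and 1 segment, the mutants differed in 0 windows (3 unadjusted) and 1 segment, the ARS315 flank was at 0.29 in both mutants, its ratio to the rest in ies6Δ at 0.29 and the ARS305 to ARS315 ratio at -0.32 (none called), and linker 3 of ARS305 in ies6Δ at 0.0073. With at most 80 reads per strand, 1, 2 and 0 windows passed (isw2Δ, ies6Δ and between mutants, the last with 2 unadjusted), the isw2Δ flanks were at -8.8e-05 (ARS305) and 0.39 (ARS315, not called), linker 2 of ARS305 at -0.043, and the flank to rest ratio at -0.37 (ARS305 in isw2Δ, called) and 0.51 (ARS315 in ies6Δ, not called).

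With positions methylated in at least 5% alone, isw2Δ had 16 windows and 6 segments and its ratio of the flanks was at -0.42 (called). Windows of 50 bp gave 5 in isw2Δ and 0 between the mutants (1 unadjusted), windows of 20 bp gave 2 between the mutants. A prominence of 0.2 gave 6, 5 and 1 segments. With a variance trend, isw2Δ had 1 segment, ies6Δ had 5 windows, and the ARS315 flank (0.39 and 0.42) was not called in either mutant. With no junction left out, chosen after seeing the data, the ARS315 flank was at 0.13 and 0.15, and with positions 1 to 30 left out at 0.22 and 0.25, not called.

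Same-numbered mutant libraries deviated together only weakly (r = 0.11 over 152 windows and 0.23 over the 27 flank windows, 2 pairs), so pairing is not established. With a replicate block, isw2Δ and ies6Δ had 1 segment each and ies6Δ had 5 windows. The ARS315 flank was at 0.34 in isw2Δ and 0.36 in ies6Δ, and the ies6Δ ratios at -0.43 (ARS305 to its rest) and -0.45 (between the flanks), none called, while the ratio of ARS315 to its rest was called in isw2Δ (0.23) and between the mutants (-0.13).

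When single mutant libraries were left out, 1 to 3 segments passed in isw2Δ and 0 to 1 windows between the mutants (1 unadjusted where 0). The ARS315 flank ranged from 0.35 to 0.44 in isw2Δ, from 0.35 to 0.48 in ies6Δ and from -0.087 to 0.040 between the mutants, and linkers 2 and 3 of ARS305 in isw2Δ from -0.069 to 0.081 and from -0.023 to 0.16. The flank to rest ratio in ies6Δ ranged from -0.46 to -0.38 at ARS305 and from 0.36 to 0.53 at ARS315, and the ratio of the flanks from -0.43 to -0.25 in isw2Δ, from -0.54 to -0.48 in ies6Δ and from 0.082 to 0.25 between the mutants. Calls of the ARS315 flank were lost without isw2Δ replicate 1 in isw2Δ and without ies6Δ replicate 1 in ies6Δ.

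For the naked DNA comparison of ARS305, isw2Δ was at 39.7% with forward and 37.4% with reverse reads alone. With another smoothing, the median linker peaks moved to 218 (linker 1) and 368 (linker 2) at 20 bp and to 384 (linker 2) and 508 (linker 3, the limit of the search and no located peak in the 4 mutant libraries) of ARS305 and 208 (linker 1) of ARS315 at 50 bp. The cause of these changes was not tested. The single wildtype library limits every contrast against wildtype, and the small number of reverse naked reads in it limits those that use the naked plasmid.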
